A study of Mus musculus with 6 samples.

Results

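Ctps2 encodes one of the pair of CTP synthases of the mouse, and its transcript was low in the livers of gigantol-dosed mice. It was 1 of the 332 genes of a deposited table that compares livers of gigantol-dosed and vehicle-dosed mice, found by its symbol, and it had been put forward because of its size of difference in this table. Its levels and its place among the other genes are therefore a description. It was included in the limma fit over the table, but its p-value there is not reported, since it was chosen on this contrast. The 6 mice were males of the outbred Kunming stock, 6 to 8 weeks old and 20 to 28 g in weight, and chance assigned 3 to gigantol and 3 to vehicle. The gigantol mice received gigantol, a bibenzyl of Dendrobium orchids that the series title calls an agonist of PPARα and PPARγ, by mouth at 10 mg/kg. The vehicle mice received the same volume of vehicle. All were killed 4 h after dosing and 1 whole-liver RNA sample per mouse was sequenced after depletion of ribosomal RNA, so each value covers all cell types of the organ. A lower value in such bulk RNA can come from fewer cells of a type or from less RNA per cell, and these cannot be told apart.

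CTP synthase makes the last step of CTP synthesis: it takes the amino group of glutamine and, at the cost of ATP, turns UTP into CTP. CTP is a building block of RNA and, after reduction, of DNA, and it activates choline and ethanolamine for phosphatidylcholine and phosphatidylethanolamine, and sialic acid for glycoproteins. Liver makes much phosphatidylcholine for membranes, bile and lipoproteins. Mammals have 2 isozymes, Ctps (CTPS1 in humans) and Ctps2, both of which can assemble into filaments called cytoophidia.

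Ctps2 (ENSMUSG00000031360) lies on the plus strand of chromosome X, from 161684234 to 161815504 in the table, on a mouse build that the sources used here do not name. The GENCODE M21 annotation of GRCm38 places a gene of the same ID and the same span, 131 kb, from 162901238 to 163032508. It gives Ctps2 13 transcripts, the number that the table also gives, and 6 of them are protein-coding. The value of the gene sums whatever transcripts the authors counted, so it says nothing of single isoforms. S100g, which encodes the calcium-binding protein calbindin-D9k, lies wholly inside the gene on the opposite strand, and 0 of its exons overlap a Ctps2 exon. Of the 4943 distinct stretches of 50 bases in the GENCODE transcripts of Ctps2, 0 occur in a transcript of another gene on either strand, Ctps included, so no other annotated transcript holds a copy of a Ctps2 exon stretch of this length.

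**Figure D1:**
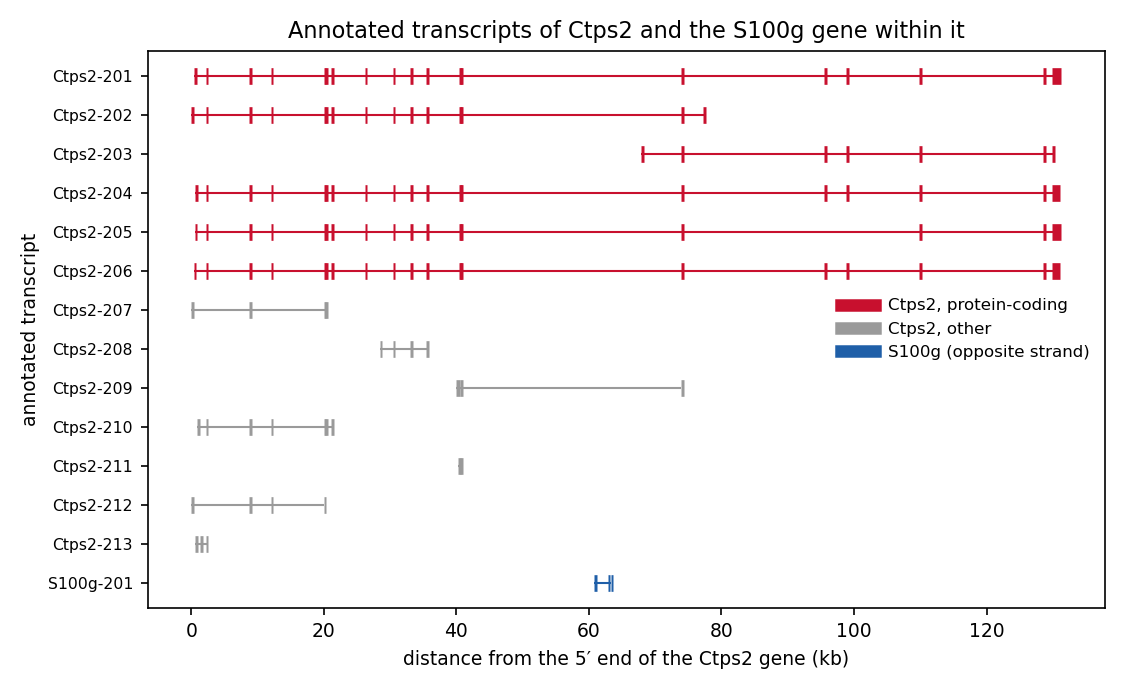
Exons (blocks, the shortest widened to be visible) and introns (lines) of the 13 annotated Ctps2 transcripts and of S100g, against distance from the 5′ end of Ctps2 in kb (GENCODE M21). S100g sits in an intron of the long Ctps2 transcripts, 60.8 to 63.4 kb from the 5′ end, and overlaps no Ctps2 exon.

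The DNA shortly before the starts of some Ctps2 transcripts is shown because the series title names receptors that bind DNA. Other annotated transcripts start upstream of this DNA, or 28.4 to 67.9 kb from the 5′ end of the gene, and it does not cover the DNA before their starts. RefSeq on GRCm38.p6 gives Ctps2 3 promoter windows, each from 250 bases before to 50 bases after a start. The 165 bases printed, chrX:162901395-162901559 on the plus strand, end just before the first of these starts and lie outside every annotated Ctps2 exon. They begin at the first base of the intron of a transcript that starts farther upstream. No letters are in capitals, since none of the motifs searched is in this stretch.
Ctps2 upstream: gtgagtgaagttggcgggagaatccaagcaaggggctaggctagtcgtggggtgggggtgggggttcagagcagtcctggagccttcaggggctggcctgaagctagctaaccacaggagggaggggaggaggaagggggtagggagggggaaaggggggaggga
The stretch is 64.2% G and C. On either strand, the hexamer AGGTCA that nuclear receptors bind was in 0 of the 3 Ctps2 windows and in 16.3% of all 32851 RefSeq windows. The direct repeat AGGTCANAGGTCA, the form bound by PPAR with RXR, contains that hexamer and was in 0 of the 3 windows and in 0.0396% of all. The E-box CACGTG was in 0 of the 3 windows and in 7.15% of all, and the GC box GGGCGG in 0 of the 3 and in 35.7% of all. CCAAT was in 1 of the 3 windows and in 37.4% of all. These are matches of letters in short windows and not sites of binding.

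Values are in CPM, the reads of a gene scaled by the authors to the size of its library. Libraries held about 21240300 to 24599400 reads in the gigantol group and 23058400 to 26703300 in the vehicle group, worked out from the smallest steps of the values, and 3 reads correspond to 0.112 to 0.141 CPM. Between replicates the listed genes differed by far more than counting noise, with a mean chi-square per gene of 54.9 to 158 among gigantol livers and 30.5 to 244 among vehicle livers. By this mean, vehicle replicate 1 stood apart from vehicle replicates 2 and 3 (244 and 205, against 30.5 between those 2). A few genes with many reads can carry such a mean, so it need not hold for most genes. None of the 10 hepatocyte markers looked for is among the genes analysed here; the gene with the highest mean was Serpina1d, an alpha-1-antitrypsin gene of hepatocytes, at 1502 CPM in gigantol and 753 CPM in vehicle livers, picked after its values were seen. The sample titles name PANC1, a human line, while the organism, tissue and treatment labels and every gene ID are mouse, so each group rests on the treatment label.

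Ctps2 read 1.08, 0.986 and 1.02 CPM in gigantol replicates 1, 2 and 3, against 16.2, 12.2 and 11.1 CPM in vehicle replicates 1, 2 and 3. All 3 gigantol livers lay at about 1 CPM and all 3 vehicle livers above 11 CPM, with no overlap. The means were 1.03 ± 0.0497 CPM in gigantol and 13.2 ± 2.65 CPM in vehicle livers (SD, n = 3 each), so the gigantol mean was 7.81% of the vehicle mean, or 12.8-fold lower. Over the 9 pairs of a gigantol and a vehicle liver, the ratio ran from 10.3-fold to 16.4-fold. Without vehicle replicate 1, the highest of the vehicle livers, the gigantol mean was 11.4-fold below a vehicle mean of 11.7 CPM.

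By the step of 1 read worked out for each library, the gigantol values stand for 23, 21 and 25 reads and the vehicle values for about 432, 312 and 257 reads. The steps were checked on values up to 200 reads, and the 3 vehicle values lie above that limit, so their reads and intervals are estimates. The exact 95% binomial intervals of the gigantol livers reach from 0.61 to 1.62 CPM and those of the vehicle livers from 9.82 to 17.8 CPM, and cover counting error alone, as reads with no molecular identifiers can be copies of one molecule. The intervals of single gigantol livers do not overlap those of single vehicle livers, which says nothing of the spread between mice. The transcript was still detected in every gigantol liver, each at 7 times the floor of 3 reads or more.

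**Figure D2:**
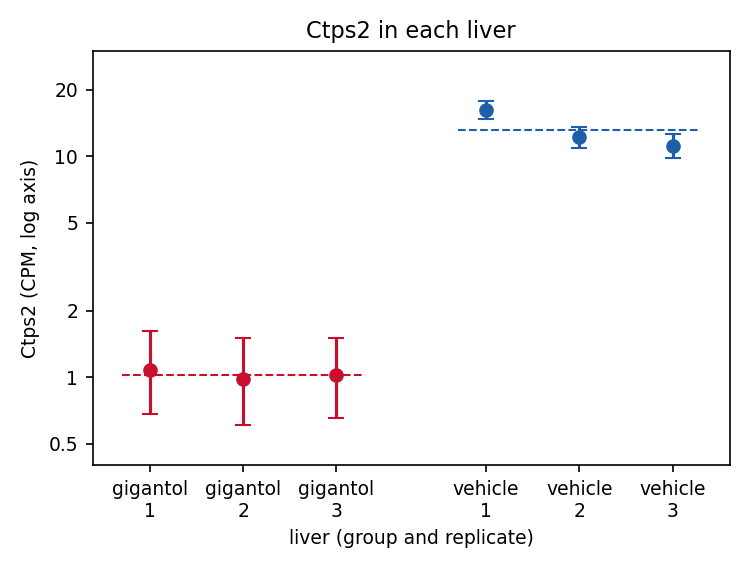
Ctps2 in CPM (log axis) in each liver, gigantol in red and vehicle in blue. Points are single livers, bars their exact 95% binomial intervals for counting error, and dashed lines the group means of 1.03 and 13.2 CPM; the highest gigantol liver (1.08) is 10.3-fold below the lowest vehicle liver (11.1).

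On a log2 scale the size depends on how low values are handled. The difference of mean log2(CPM + 1), gigantol minus vehicle, was −2.79 ± 0.354 (SE, limma fitted over the table). The added 1 CPM equals the whole gigantol level and shrinks this value, and the log2 ratio of the group means was −3.68. The authors' deposited table likewise lists a log2 fold change of −3.68 for Ctps2, with an FDR of 8.52e-32, which rests on the same values that put the gene forward. All 332 had been selected on these same 6 livers, with unadjusted p up to 0.0499 and log2 fold changes of 1.00 or more in size.

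Among the genes that were lower in gigantol livers, Ctps2 combined a small ratio with a wide separation of the groups. Of the 132 lower genes averaging 1 CPM or more, 5 had a smaller ratio of gigantol to vehicle means: Rps3a2, Gm47544, Gm14440, Camk2b and Rps18. In all 5 the groups overlapped or met, with 1 vehicle liver at or near the gigantol level. Rps18, a ribosomal protein gene of the small subunit, read 5.7, 8.31 and 6.22 CPM in gigantol livers, against 6.93, 244 and 288 CPM in vehicle livers. Camk2b, a calcium/calmodulin-dependent kinase subunit, read 0.094, 0.047 and 0.041 CPM in gigantol livers, against 0.037, 5.75 and 7.5 CPM in vehicle livers. Rps3a2, Gm47544 and Gm14440 were listed at 0 CPM in all 3 gigantol livers and in 1 vehicle liver each. These 5 genes were named after their values were seen.

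The groups did not overlap for 72% of all 332 genes, and for 48.5% of the 332 in the lower direction, a share that the selection of the table raises. The distance between the groups differed more: among the 94 lower genes averaging 1 CPM or more without overlap, the lowest vehicle liver was a median of 1.38 times the highest gigantol liver. For Ctps2 this was 10.3 times, the largest of the 94. Next came Sult2a7, a sulfotransferase, at 3.48 times, with 0.516 CPM in the highest gigantol and 1.8 CPM in the lowest vehicle liver. Acot3, a peroxisomal acyl-CoA thioesterase, followed at 2.56 times (13.9 and 35.7 CPM), then Cyp3a63-ps, a cytochrome P450 pseudogene, at 2.55 times, Gbp11 at 2.47 times and Ppbp at 2.42 times. Among genes averaging 1 CPM or more that were higher in gigantol livers, 5 had a wider gap than Ctps2, counted from the highest vehicle to the lowest gigantol liver: Gm7292, BC018473, Capza1-ps1, Gm14253 and Kpna2. For all of these but Kpna2 the vehicle mean was 0.026 CPM or less, below the floor of 3 reads, so their gaps rest on vehicle values near 0.

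**Figure D3:**
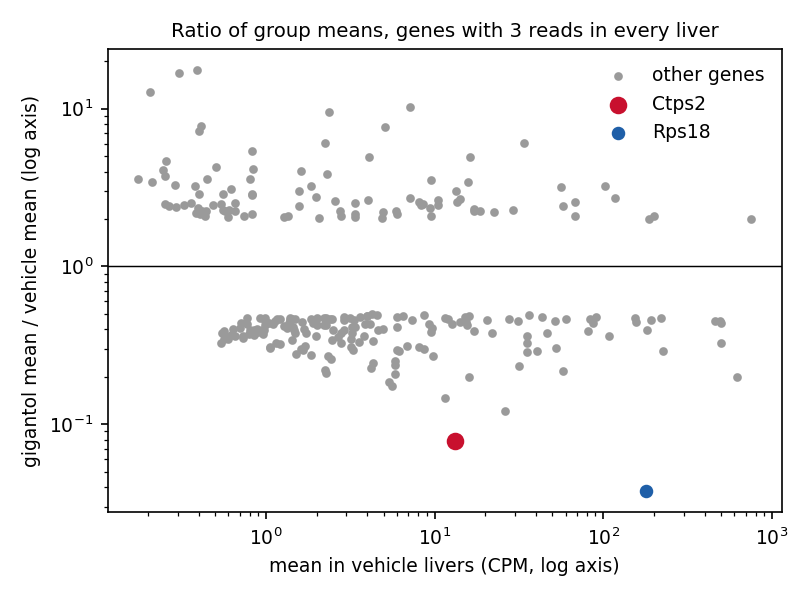
Ratio of the gigantol to the vehicle mean (log axis) against the vehicle mean in CPM (log axis) for the 265 genes with at least 3 reads in every liver. Ctps2 (red, 13.2 CPM in vehicle) has the second lowest ratio of the 168 lower genes, after Rps18 (blue), whose groups overlap; the empty band around 1 comes from the authors' selection by fold change.

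In the order of fold between group means over the 214 genes averaging 1 CPM or more, in either direction, Ctps2 was number 17. The 3 genes just before it were Gm20547, Xlr3a and Gm45470, at 17.8-, 17.5- and 16.9-fold, and the 3 just after it Slc22a21, Rcc1 and Hsd3b5, at 12.7-, 10.3- and 9.53-fold. All 6 had higher means in gigantol livers. Rcc1, the exchange factor of the Ran GTPase, read 83.9, 65.0 and 70.8 CPM in gigantol livers, against 9.25, 6.06 and 6.03 CPM in vehicle livers. Gm20547, by contrast, read 1.27, 13.2 and 13.6 CPM in gigantol livers, against 1.46, 0.117 and 0 CPM in vehicle livers, so its groups overlapped.

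Ctps2 varied less among gigantol than among vehicle livers; this difference in spread was not tested. The coefficient of variation, the SD over the mean, was 4.83% among gigantol livers and 20.1% among vehicle livers. Reads at these numbers would by counting alone give a coefficient near 20.9% in gigantol and 5.47% in vehicle livers. The observed coefficient was thus below the counting value in gigantol livers and above it in vehicle livers, where replicate 1 was the high one.

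Genes of like level give a scale for this. Of 111 other genes whose gigantol mean was 0.514 to 2.06 CPM, 1 had a smaller coefficient than Ctps2, Gm4767 at 4.72%, and their median was 36.9%. Counting alone would give Ctps2 about 20.9% here, so this place does not show that the gigantol mice differed little in Ctps2. Of 43 other genes whose vehicle mean was 6.59 to 26.3 CPM, 10 had a smaller coefficient, and their median was 29.1%. The 3 genes nearest to Ctps2 in vehicle CPM were Aox1, an aldehyde oxidase, Zfand4, a zinc finger protein, and Akr1b3, an aldose reductase. Akr1b3 read 7.3, 4.88 and 4.15 CPM in gigantol livers, against 11.9, 12.8 and 13.2 CPM in vehicle livers, and Aox1 averaged 40.6 ± 36.0 CPM in gigantol and 13.4 ± 1.6 CPM in vehicle livers (SD, n = 3 each). Zfand4 averaged 34.9 ± 15.4 CPM in gigantol and 13.7 ± 5.01 CPM in vehicle livers (SD, n = 3 each).

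**Figure D4:**
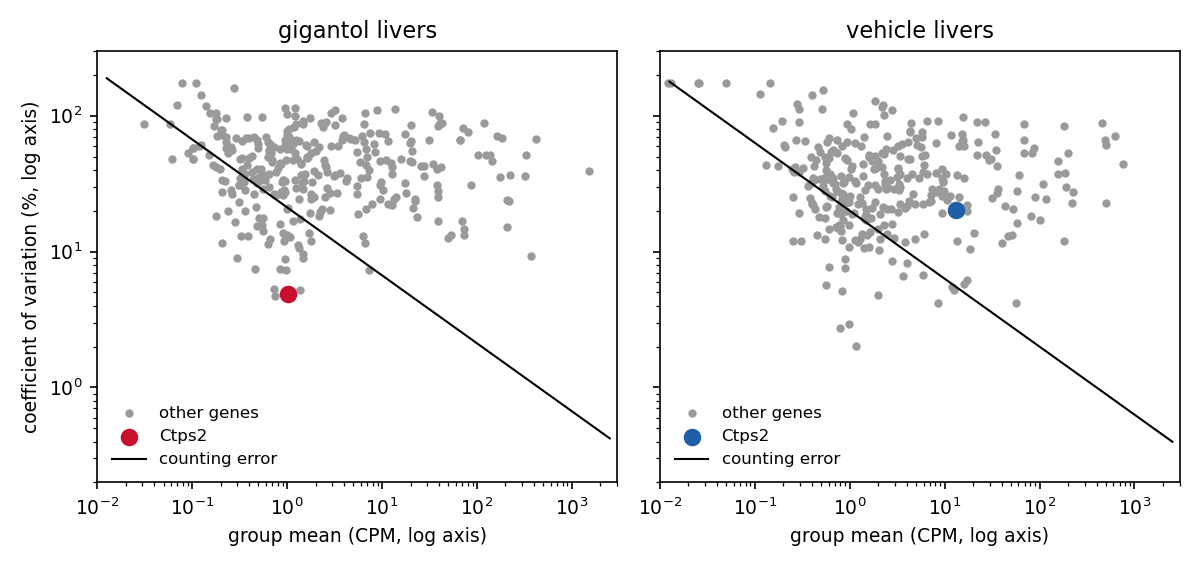
Coefficient of variation in percent (log axis) against group mean in CPM (log axis) for the genes of the table with a coefficient above 0, gigantol livers left and vehicle livers right; the line is the coefficient that counting error alone gives. Ctps2 lies under the line among gigantol livers (4.83%) and above it among vehicle livers (20.1%).

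Few genes of CTP metabolism can be set beside Ctps2. The lists drawn up for it hold 147 symbols in 11 groups, from de novo pyrimidine synthesis (Cad, Dhodh, Umps) and pyrimidine kinases and salvage to glutamine use, phospholipid synthesis from CTP (Pcyt1a, Pcyt2, Chka, Cds1) and sialic acid activation (Cmas). For 9 of the 11 groups no member was among the genes analysed here, and Ctps, the other CTP synthase, was not analysed here either. Apart from Ctps2, 2 of the 147 were listed, Myc and Mycl, transcription factor genes placed in the group for ribosome production because MYC proteins drive nucleotide and ribosome synthesis in growing cells.

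Both had lower means in gigantol livers, and 1 of the 2 fell by the call used here, an FDR under 0.05 in the authors' deposited table, as did 15.7% of the 332 genes, while 10.2% rose and 25.9% did either. Mycl read 16.5, 13.8 and 23.0 CPM in gigantol livers, against 48.1, 31.2 and 29.0 CPM in vehicle livers. Its groups did not overlap, and its FDR in the authors' deposited table was 0.0481. Myc read 2.21, 7.32 and 2.48 CPM in gigantol livers, against 6.67, 9.93 and 11.3 CPM in vehicle livers. Gigantol replicate 2 lay above vehicle replicate 1, and the FDR of Myc in the authors' deposited table was 0.325.

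limma on log2(CPM + 1) gave differences of −0.98 ± 0.465 for Mycl and −1.16 ± 0.446 for Myc (SE), with limma adjusted p of 0.0734 and 0.0476 over the 201 genes tested. Of these 201 genes 111 (55.2%) had a limma adjusted p under 0.05, in a table selected on the same livers. For Myc the limma adjusted p was 0.0141 to 0.151 with 1 liver left out, and it was above 0.05 without gigantol replicate 1 (0.151), gigantol replicate 3 (0.129), vehicle replicate 2 (0.128) or vehicle replicate 3 (0.133). It was also above 0.05 with a pseudocount of 0.1 CPM (0.0523), with no filter on low values (0.057), when only genes averaging 5 CPM or more were fitted (0.0553) and after rescaling CPM by the table's sum (0.0619), so the limma call for Myc depends on these settings.

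The table's own annotation gives 13 gene ontology terms and 4 KEGG pathways to Ctps2. No other gene carried CTP synthase activity, the glutamine metabolic process, the cytoophidium or pyrimidine metabolism. The term for CTP biosynthesis was shared with 1 gene, Gm20390, a readthrough locus that overlaps Nme1 and Nme2 on the same strand; these encode nucleoside diphosphate kinases, which make UTP, the substrate of CTP synthase, from UDP. Gm20390 read 7.39, 16.8 and 8.5 CPM in gigantol livers, against 5.17, 3.71 and 5.9 CPM in vehicle livers. The groups did not overlap, yet its FDR in the authors' deposited table was 0.122, and its reads can have been shared with Nme1 and Nme2. Gpcpd1, a glycerophosphocholine phosphodiesterase that releases choline from a breakdown product of phosphatidylcholine, read 161, 122 and 243 CPM in gigantol livers, against 110, 52.2 and 42.4 CPM in vehicle livers, and the authors' deposited table gives it an FDR of 0.0541. Both were named after their values were seen. Broader terms were common: 11 other genes carried nucleotide binding, of which, in the authors' deposited table, 5 fell and 2 rose at that FDR threshold, and 29 carried KEGG metabolic pathways, of which 7 fell and 3 rose. Of 25 with identical protein binding 3 fell and 0 rose, of 78 assigned to the cytoplasm 19 fell and 7 rose, of 17 assigned to the mitochondrion 6 fell and 2 rose, and of 9 with ATP binding 4 fell and 2 rose. Over all 332 genes 15.7% fell and 10.2% rose.

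On the X chromosome, 4 of the 332 genes were listed, Ctps2 among them, and male mice carry 1 copy of this chromosome. GENCODE M21 gives 27 gene entries within 500 kb of Ctps2, with the symbol Gm23786 repeated. None was among the genes analysed here, including the 6 protein-coding neighbours S100g, Syap1, Txlng, Rbbp7, Reps2 and Grpr. The nearest listed gene, F630028O10Rik, lay 66.4 Mb away and read 0.612, 0.751 and 0.61 CPM in gigantol livers, against 0.974, 1.25 and 1.95 CPM in vehicle livers. Xlr3a, of the X-linked lymphocyte-regulated family, lay 89.5 Mb away and went the other way, with 5.04, 6.01 and 9.63 CPM in gigantol livers, against 0.412, 0.508 and 0.26 CPM in vehicle livers. Rps2-ps13, a pseudogene, read 157, 202 and 0 CPM in gigantol livers, against 0, 0 and 0.434 CPM in vehicle livers.

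Likeness of pattern was measured by Pearson's r of log2(CPM + 1) with Ctps2 over the 6 livers, for the 213 other genes averaging 1 CPM or more. The livers form 2 groups and every gene was selected for a difference between them, so r mostly reflects that difference: its absolute value had a median of 0.79 and was above 0.9 for 40 genes. The highest values were those of Tmem26, a transmembrane protein (0.986), the guanylate-binding proteins Gbp11 (0.977) and Gbp8 (0.971), the glucose transporter Slc2a3 (0.97) and Adamts5, a metalloprotease of aggrecan (0.966). The lowest were those of Hsd3b5 (−0.99), BC018473 (−0.984), Kpna2 (−0.979), Rcc1 (−0.973) and Xlr3a (−0.972).

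The 5 most similar genes shared the direction of Ctps2 and not its size. Tmem26 read 0.989, 1.03 and 0.894 CPM in gigantol livers, against 2.7, 2.03 and 2.12 CPM in vehicle livers, a 2.35-fold lower mean. Gbp11 read 1.65, 2.3 and 1.38 CPM in gigantol livers, against 6.44, 5.83 and 5.68 CPM in vehicle livers, a 3.37-fold lower mean. Gbp8, Slc2a3 and Adamts5 had 2.75-, 2.65- and 2.1-fold lower means. In all 5, as in Ctps2, replicate 1 was the highest vehicle liver. Choosing genes by r over these same livers favours that order, so it is no sign of a shared pattern among vehicle livers. Over the 131 lower genes compared, replicate 1 was the highest vehicle liver for 48, replicate 2 for 35 and replicate 3 for 48.

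**Figure D5:**
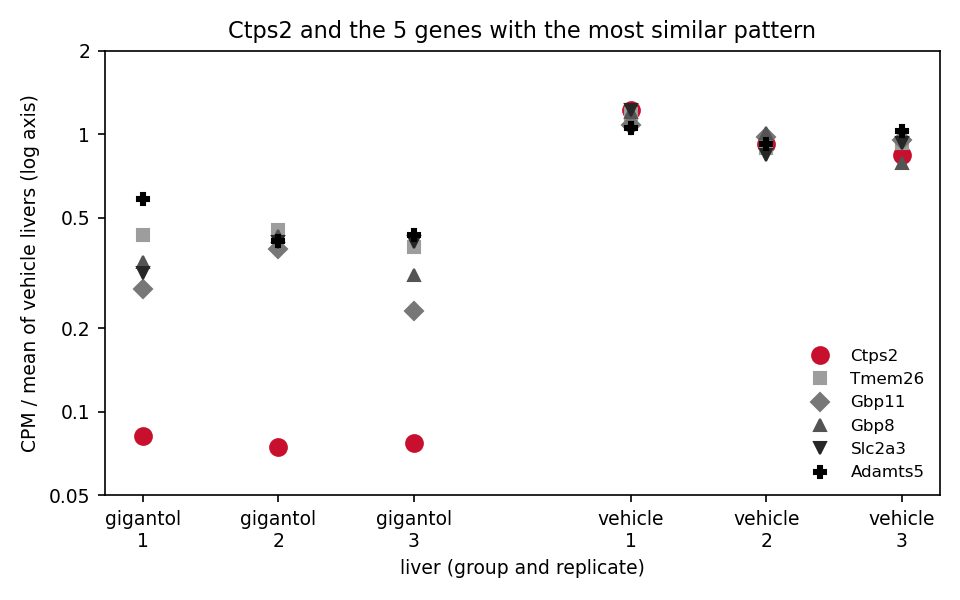
CPM of Ctps2 (red) and the 5 genes with the highest r to it, divided by each gene's mean over the vehicle livers (log axis), in each liver. In gigantol livers Ctps2 averages 7.81% of its vehicle mean and lies under the other 5 genes, whose means are 2.1- to 3.37-fold lower than in vehicle livers.

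Markers of other cell types were also looked at, and their part in the level of Ctps2 was not tested. Of 93 marker symbols of 10 cell types 13 were listed, all with lower means in gigantol livers, as had 213 of all 332 genes. The 6 listed erythroid markers of 9 summed to 349 to 633 CPM in gigantol livers and 554 to 1913 CPM in vehicle livers, with overlap. The listed macrophage marker Marco, 1 of 11, was at 1.54 to 3.71 CPM in gigantol and 8.21 to 8.89 CPM in vehicle livers. The 2 listed stellate cell markers of 11 summed to 6.81 to 11.9 CPM in gigantol and 13.1 to 24.5 CPM in vehicle livers. The 3 listed T and NK cell markers of 10 summed to 1.08 to 1.46 CPM in gigantol and 2.43 to 3.32 CPM in vehicle livers, and the B cell marker Cd79a, 1 of 7, was at 0.141 to 0.282 CPM in gigantol and 0.347 to 0.749 CPM in vehicle livers. Of the 13, 2 fell at the same threshold in the authors' deposited table, Marco and the alpha-globin gene Hba-a2, whose reads can have been shared with its near-identical copy Hba-a1, beside 15.7% of all 332 genes. No marker of hepatocytes, endothelial cells, cholangiocytes, neutrophils or dividing cells was among the genes analysed here.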

How the data were processed

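Liver RNA of 6 mice was sequenced from rRNA-depleted stranded libraries, per the labels' protocols. The submitters' processing notes list DESeq2 1.16.1, HISAT2 and fastp and the build GRCh38, although all gene IDs are mouse. No counter, strand setting or annotation is stated in the sources used here. The deposited values are CPM scaled by the authors, a unit read from the values, since the header names none. All values up to 200 reads were whole multiples of 1 step per library within 0.1 reads. The log2 fold changes, p-values and FDR beside them were deposited by the authors, whose adjustment covered 13192 genes by the ratio of FDR to p of the first gene.

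limma 3.58.1 in R 4.3.3 was fitted, two-sided, to log2(CPM + 1) of all genes that reached 1 CPM in 3 or more libraries, with trended, robust moderation and Benjamini-Hochberg adjustment at 0.05. It was also run on simulated counts that gave every gene the same biological spread. That run does not bear on the calls made here. A gene is said to have risen or fallen by the authors' FDR. Python 3.11.15 and SciPy 1.17.1 gave the other values. Samples were grouped by the treatment label, and p-values rest on 3 mice a group. Named were the listed pathway genes, the 5 genes each of highest and lowest r, the 3 before and after Ctps2 by fold, the 3 nearest in vehicle CPM and those on X; other choices are marked. Ctps2 and all lists were chosen with earlier results of these data known.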

Additional observations from a re-analysis of the deposited data

How the results depend on the processing

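Ctps2 was lower in gigantol livers under all settings run, none of which could reverse a gap of 10.3-fold between the groups. Its log2 difference of −2.79 became −3.54 and −3.14 with pseudocounts of 0.1 and 0.5 CPM and −3.68 as the log2 ratio of the means, since less is then added to a gigantol level near 1 CPM. It ran from −2.89 to −2.64 with 1 liver left out, and was −2.71 with CPM rescaled by the table's sum, an alternative chosen after seeing the data. By absolute limma difference it ranked 10 of 332, and 8 to 17 with 1 liver left out, the last without vehicle replicate 1. Its spread expressed as SD of log2(CPM + 1) was 0.0352 in gigantol and 0.261 in vehicle livers, in place of coefficients of 4.83% and 20.1%.

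The 111 genes past the limma threshold were 169 with no filter on low values, 24 of 101 tested with a mean of at least 5 CPM, 67 after the rescaling, and 32 to 136 with 1 liver left out. They were 57 without gigantol replicate 1, 60 without gigantol replicate 3, 32 without vehicle replicate 2 and 35 without vehicle replicate 3; the cause was not tested. Of the 111, 36.0% were higher, against 49.3% of the 67 after the rescaling. Replicate numbers were not shown to pair the livers: correlations of same-numbered deviations were 0.13, 0.15 and −0.1. With the replicate number as a block the Ctps2 difference stayed at −2.79 (SE 0.439) and 128 genes passed. The planned count-based fits were not run. With 21 to 25 reads per gigantol liver, depth limits how well the Ctps2 level there is known, and 3 mice a group limit every comparison.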
